A study of Homo sapiens with 2 samples.

Results

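The 10 genes described here encode parts of the Wnt and beta-catenin signalling pathway: the receptors FZD6, LRP5 and LRP6, the cytoplasmic proteins AXIN1, AXIN2, APC, GSK3B and TNKS, and the nuclear partners CTNNB1 and TCF7L2. They were taken by name from a list of RNA regions recovered with YTHDF3, and a gene with no row under its name counts as having no peak. Of the 10 genes, 8 had at least 1 peak, and together these held 26 of the 18466 peaks of the list. YTHDF3 is a cytoplasmic protein that reads the RNA modification N6-methyladenosine (m6A). It was precipitated from KYSE30 cells, a human cell line established from squamous cell carcinoma of the esophagus, which grew in serum-containing medium and received no treatment. The study made 1 library from RNA precipitated with an antibody to YTHDF3 (RNA immunoprecipitation, RIP) and 1 input library from the lysate, to find which transcripts the protein binds. Neither kind of library was repeated, so no value has a replicate error, none was tested across samples, and each describes these 2 libraries alone. For every peak the authors' list gives a fold enrichment (RIP over input), a p and an adjusted p, which are used as deposited, with positions on build hg38. The read depth behind a peak is unknown, and no library of a control antibody was analysed here, so a peak may hold RNA recovered without YTHDF3.

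In Wnt signalling, a secreted ligand brings a frizzled receptor together with the co-receptor LRP5 or LRP6. Without a ligand, a destruction complex built on the scaffolds axin and APC holds beta-catenin while casein kinase and glycogen synthase kinase phosphorylate it, which marks it for ubiquitination and degradation. With a ligand the complex is inhibited, beta-catenin collects and enters the nucleus, and there it joins factors of the TCF and LEF family at target genes. Tankyrases, of which TNKS is one, modify axin so that it is degraded, and AXIN2 is itself a target gene that feeds back on the pathway.

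Most of the sequence under the regions is not printed, because only windows around RefSeq starts, and no full genome, were at hand. The list also gives outer bounds only, so which bases within them belong to the recovered RNA is unknown. Transcribed bases just after a RefSeq start of GRCh38.p14 lay within the bounds of a region in APC and GSK3B, and these are shown. The upstream APC bases and the GSK3B bases mark where a region began, and the downstream APC bases lie well inside, at a further start that the same region spans. The APC region at chr5:112707498-112842253, on the plus strand, began on the first transcribed base of the upstream start if the list counts starts from 0, as taken here, and 1 base before it otherwise. The GSK3B region at chr3:120093968-120094417, on the minus strand, began 30 bases into the transcript. Capitals mark GGAC, the core of the commonest m6A sequence context.
APC upstream start, chr5:112707498-112707527, transcript bases 1 to 30: gcattgtagtcttcccacctcccacaagat
APC downstream start, chr5:112737885-112737914, transcript bases 1 to 30: actggagacagaatggaggtgctgccGGAC
GSK3B start, chr3:120094398-120094417, transcript bases 31 to 50: cgggcttgtgccgccgccgc
GGAC was read on the transcript's strand in these bases and began at base 27 of the downstream APC transcript. Among 35116 RefSeq start windows, 11.0% held GGAC within the first 30 transcribed bases, and 20.3% held it on either strand. A match is a run of letters and not a modified site, and bases between the outer bounds of a region can be intronic.

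A peak was thus listed for 8 of 10 genes, against 40.0% of the 19974 protein-coding genes of chromosomes 1 to 22 and X. Among the 7430 protein-coding genes within the length range of the 10 genes, from 33086 to 273127 bases, the share was 50.2%. The same 8 genes had a peak with an adjusted p under 0.05, against a background of 34.0%. This and the later shares of protein-coding genes are over genes of every length, since the length range was applied to all listed peaks only. At or above the list's median fold enrichment of 5.02, 6 of the 10 genes had a peak, against 28.7% of protein-coding genes. Only APC and AXIN1 had a peak among the top 10% of the list by p, where 7.99% of protein-coding genes had one. How strongly each gene was expressed was not analysed here, and its part in these shares was not tested.

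The 2 genes without a peak were CTNNB1, which codes for beta-catenin itself, and AXIN2. CTNNB1 lies on chromosome 3 from 41199505 to 41240443, and the nearest listed peak, of ZNF621, was 660879 bases away. AXIN2 lies on chromosome 17 from 65528563 to 65561648, and its nearest listed peak, of GNA13, was 471724 bases away. No row stood under an older name of any of the 10 genes. Absence from the list does not tell a transcript that was not enriched from one with too few reads, or from one that failed the authors' thresholds.

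**Figure D1:**
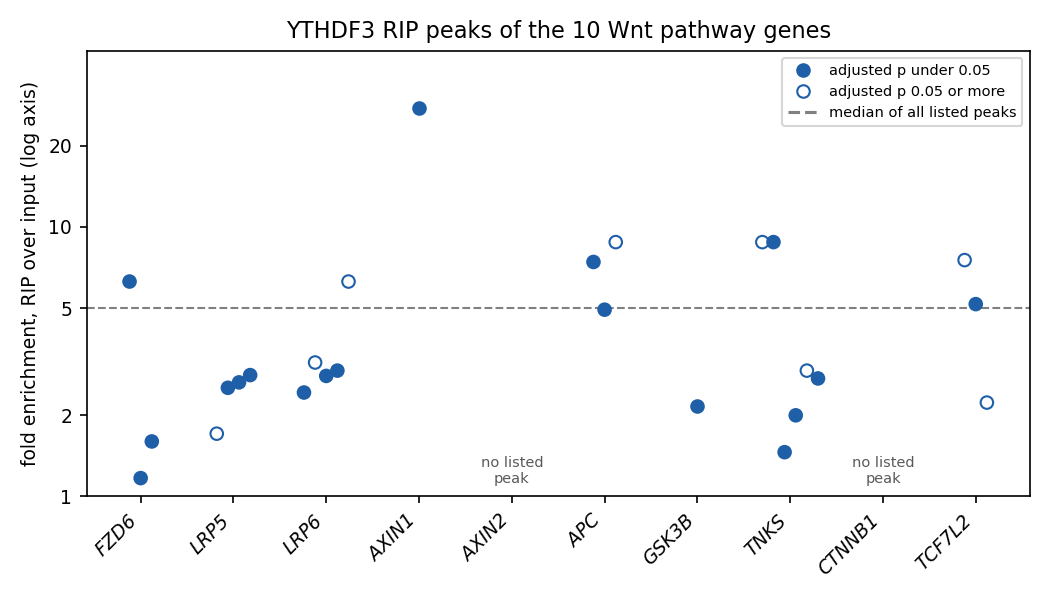
Fold enrichment of RIP over input (log axis) for each listed peak of the 10 genes, ordered within a gene from its 5′ to its 3′ end; filled points have an adjusted p under 0.05, open points do not, and the dashed line is the median of all listed peaks (5.02). AXIN1 stands alone at 27.6, the peaks of LRP5 lie between 1.71 and 2.82, and AXIN2 and CTNNB1 have no listed peak.

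AXIN1, the scaffold of the destruction complex, had the largest fold enrichment of the 10 genes. Its single region on chromosome 16 from 287440 to 352659 (minus strand) had a fold enrichment of 27.6, a p of 1e-102 and an adjusted p of 1e-100. Only 139 of the 18466 peaks had a larger fold enrichment and 655 a smaller p. Counted over genes, 1.58% of the 7999 protein-coding genes with a peak had a larger best fold enrichment. The region ended exactly on the last base of the gene and began 64 bases after its 5′ end, so its outer bounds took in 99.9% of the gene, introns included. No other member combined a large fold enrichment with a p of this size, and its paralog AXIN2 was absent from the list.

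APC, the other large scaffold of the complex and a tumour suppressor, had 3 regions that followed each other along chromosome 5. The first, whose start is printed above, had a fold enrichment of 7.41 with a p of 1.6e-65 and an adjusted p of 1e-63. The next ran from 112842313 to 112844591 with a fold enrichment of 4.93 at an adjusted p of 2.5e-13. The last ran from 112845040 to 112846239, the end of the gene, with a fold enrichment of 8.78 at an adjusted p of 0.056. The strongest evidence by p therefore lay in the region with the middle fold enrichment, and the largest fold enrichment missed the threshold. The gaps between these regions were 59 and 448 bases, and their bounds covered 99.6% of the gene. In all, 489 peaks of the list, the last APC region included, had its fold enrichment and its p, with p compared as rounded in the list.

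GSK3B, the kinase that phosphorylates beta-catenin in the complex, differed from both scaffolds in having a single short region. The 450 bases on chromosome 3 from 120093968 to 120094417 lay at the 5′ end of a gene of 273127 bases, the longest of the 10. Its fold enrichment was 2.17, with a p of 0.0023 and an adjusted p of 0.0089. A larger best fold enrichment was listed for 92.6% of the protein-coding genes with a peak, so GSK3B stood near the bottom of the genes on the list. The related kinase gene GSK3A had no listed peak.

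TNKS, the tankyrase gene, had 6 regions on the plus strand of chromosome 8, more than any of the other 9 genes. From the 5′ to the 3′ end their fold enrichments were 8.78, 8.78, 1.46, 2.0, 2.93 and 2.74. Their adjusted p in the same order were 0.14, 0.0087, 0.033, 7.6e-05, 0.083 and 2.9e-06. The largest fold enrichments thus stood in the first 2 regions, and the smallest p in the region nearest the 3′ end. The second region ran from 9558673 to 9708385, at 149713 bases the longest of all 26, and spanned from 1.22% to 67.3% of the gene. The first, of 301 bases, shared 294 bases with a minus-strand peak listed as RP11-375N15.2, whose fold enrichment was also 8.78 with the same adjusted p of 0.14. Whether the authors' counting used strand is not given in the sources used here, so reads of the 2 overlapping transcripts may not be separable. TNKS2, which codes for the second tankyrase, had no listed peak.

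**Figure D2:**
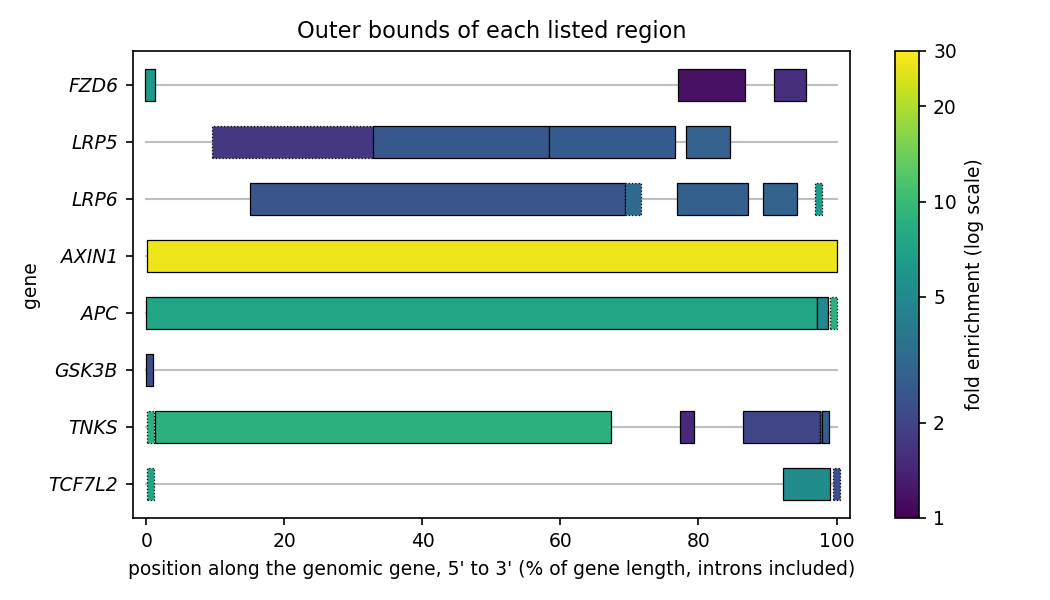
Outer bounds of each listed region along the 8 genes with a peak, as percent of the genomic gene from the 5′ to the 3′ end (x axis), coloured by fold enrichment on a log scale; dotted outlines have an adjusted p of 0.05 or more, and very short regions are drawn 1% wide. AXIN1 and APC are covered almost from end to end, GSK3B has 1 region at its 5′ end, and TCF7L2 has regions at both ends.

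Among the receptors, the co-receptor genes LRP5 and LRP6 had many regions of small fold enrichment. LRP5 had 4 regions on chromosome 11, with fold enrichments of 1.71, 2.53, 2.65 and 2.82 from the 5′ to the 3′ end. Their adjusted p were 0.079, 2.4e-10, 4.7e-05 and 0.0024. All 4 lay below the list's median, and the first 3 were separated by gaps of 58 and 89 bases. The regions ran from 68312669 to 68426040 and covered 73.5% of the gene, and the first began 78 bases after the RefSeq transcript start at 68312591.

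LRP6 had 5 regions on chromosome 12, with fold enrichments of 2.43, 3.14, 2.8, 2.93 and 6.27 from the 5′ to the 3′ end. Their adjusted p were 3.2e-11, 0.078, 0.00093, 0.0079 and 0.15. The region with the largest fold enrichment was the shortest, 870 bases from 12119771 to 12120640, and had the weakest p. The region with the smallest p, from 12162381 to 12244358, had the lowest fold enrichment. In the peak with the smallest p, LRP5 and LRP6 stood at 2.53 and 2.43, while by the best fold enrichment they stood at 2.82 and 6.27. No error can be given for these values, so the order of the pair was not tested.

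FZD6, a frizzled receptor gene, had 3 regions on chromosome 8 that each had an adjusted p under 0.05. The first ran from 103298433 to 103298903, from 61 bases before the RefSeq start of the gene, with a fold enrichment of 6.27 at an adjusted p of 0.019. It shared 340 bases with a minus-strand peak of BAALC-AS1, whose fold enrichment was 13.8 with an adjusted p of 0.0016. The other regions, toward the 3′ end, had fold enrichments of 1.17 and 1.6 and adjusted p of 0.015 and 8.5e-06. The value of 1.17 was the lowest of the 26. Without the region shared with BAALC-AS1, the best fold enrichment of FZD6 was therefore 1.6.

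TCF7L2, which codes for a DNA-binding partner of beta-catenin, had 3 regions on chromosome 10. A region of 150 bases from 112950579 to 112950728, 332 bases into the gene, had a fold enrichment of 7.53 at an adjusted p of 0.25. This fold enrichment and p, compared as rounded in the list, were held by 747 peaks, this one included. The other regions lay 200309 bases further on, at the 3′ end. One ran from 113151038 to 113165617 with a fold enrichment of 5.17 at an adjusted p of 6.3e-16, and the other from 113166633 to 113167170 with 2.23 and 0.11. By p, the strongest TCF7L2 region thus lay near the end of the gene, from 92.3% to 99.1% of its length.

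Over the 26 regions, 18 (69.2%) had an adjusted p under 0.05, against 74.4% of all listed peaks. The median fold enrichment was 2.88, and 17 of the 26 regions lay below the list's median. Of those 17, 13 had an adjusted p under 0.05, and of the 9 at or above the median, 5 did. Over all listed peaks the corresponding shares were 71.7% and 76.7%. For APC, LRP6 and TCF7L2 the peak with the largest fold enrichment had an adjusted p of 0.05 or more. The deposited adjusted p did not follow p alone, and how it was computed is not given in the sources used here. The last APC region and the first of TNKS, both at 8.78 with a p of 0.017, had 0.056 and 0.14. Counts under 0.05 therefore do not order peaks by p alone. For AXIN1 and GSK3B, each with a single region, the largest fold enrichment and the smallest p necessarily fell in 1 peak. The median best fold enrichment over the 8 genes was 6.9, against 7.53 over all protein-coding genes with a peak. Taken in the peak with the smallest p, the medians were 2.63 for the 8 genes and 6.27 for protein-coding genes.

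**Figure D3:**
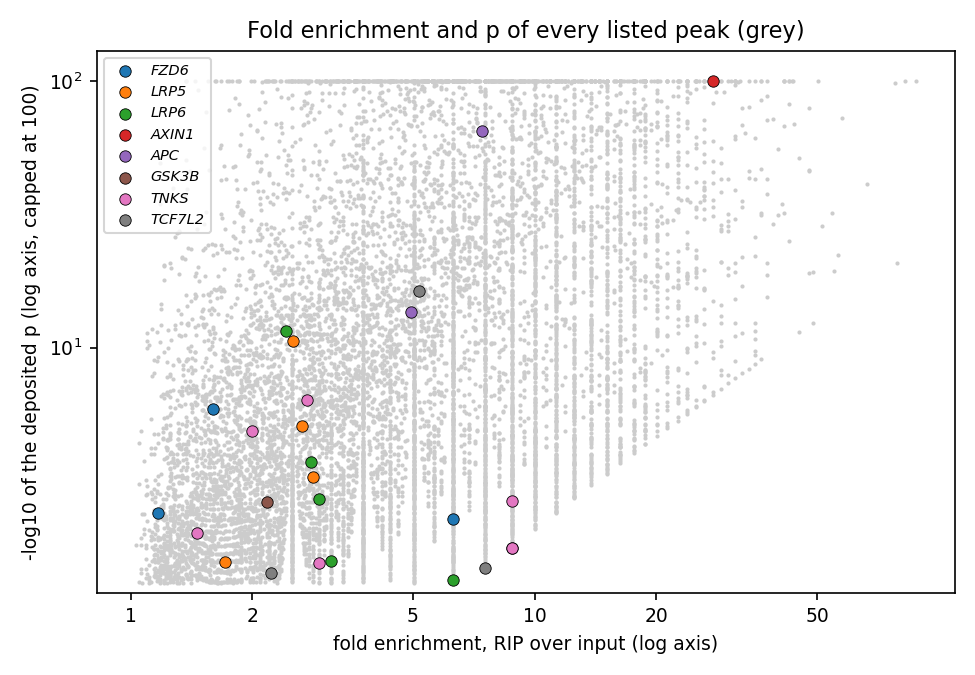
Fold enrichment (x, log axis) against −log10 of the deposited p (y, log axis, values above 100 drawn at 100) for every listed peak in grey and the 26 regions of the 8 genes in colour. AXIN1 (27.6) and the long APC region (7.41) stand high on the y axis, whereas the first regions of TNKS and TCF7L2, at 8.78 and 7.53, lie near its foot with values that 489 and 747 peaks share; the last APC region is hidden under the first of TNKS.

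The regions were also described by strand, place and span. All regions of a gene carried 1 strand, which the choice by gene name can fix in advance. For 6 of the 8 genes, a region began within 500 bases of the RefSeq 5′ end, the exceptions being LRP5 and LRP6; for LRP5 the RefSeq table also holds the downstream start named above. A region came within 1500 bases of the 3′ end in 3 genes, AXIN1, APC and TCF7L2. The last region of FZD6, at 1505 bases, fell just outside this limit. Of the 26 regions, 10 spanned over 10000 bases and 8 at most 1000. Of the 18 gaps between neighbouring regions of a gene, 6 measured at most 150 bases, the smallest 58. These counts of edges, spans and gaps were not made over all listed peaks, so they cannot be called particular to these genes. Among 17321 peaks matched to a gene, 786 starts lay 1 below the RefSeq gene start and 702 ends equalled the gene end. Of the 26 regions, 2 (the first of TNKS and of FZD6) overlapped a peak of another gene, as did 18.2% of all listed peaks. Without such regions all 8 genes had a peak, against 35.3% of protein-coding genes.

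A wider list of 107 Wnt pathway genes, the 10 included, was described in the same way. Like the 10 genes, it was chosen with earlier results of these data known, so its shares are no independent support. Of the other 97 genes, 58 (59.8%) had a peak, against 40.0% of protein-coding genes. A peak with an adjusted p under 0.05 was listed for 51 of the 97, against 34.0% of protein-coding genes. No share for genes of like length was computed for this list. The median best fold enrichment of the 58 was 9.08, against 7.53 over protein-coding genes with a peak. By role, without the 10 genes, it ran from 1.44 for ligand secretion (WLS alone) to 12.9 for nuclear factors. For this list no median was computed in the peak with the smallest p, where that of the 8 genes was 2.63 against 6.27. With the 10 genes included, the counts by role ran from 6 of 22 extracellular modulators to 20 of 24 cytoplasmic transducers, and they were not tested against each other.

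Among ligands, 8 of 19 WNT genes (42.1%) had a peak, a share near the background of 40.0%, led by WNT7B at 26.3, WNT7A at 16.3 and WNT3 at 16.3. Of the genes for ligand secretion, WLS, which carries WNT proteins to the surface, had a peak at 1.44 with an adjusted p of 0.047, and PORCN had none. Of 22 genes listed as extracellular modulators, 6 (27.3%) had a peak. This role mixes secreted factors with membrane proteins, and among the 6 only DKK1 codes for a secreted protein. RNF43 and ZNRF3, ubiquitin ligases that remove frizzled receptors from the membrane, both had a best fold enrichment of 16.3, that of RNF43 in a region that also carried another gene's peak. KREMEN2, a receptor for DKK inhibitors, stood at 12.5.

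Of the other 13 receptor genes, 10 (76.9%) had a peak. All 10 frizzled genes except FZD10 had a peak, and 8 had one with an adjusted p under 0.05. FZD1 led at 23.8, followed by FZD7 at 18.8 and by FZD2 and FZD8 at 15.1 each. FZD9 stood at 8.78 with an adjusted p of 0.14, FZD5 at 7.53 and FZD3 at 5.02. FZD4 had 6.27, in a region that also carried another gene's peak, the same best fold enrichment as FZD6. The adjusted p were 5e-42 for FZD4 and 0.019 for FZD6. By best fold enrichment, 6 frizzled genes stood above FZD6.

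Of the other 19 cytoplasmic transducers, 16 (84.2%) had a peak, led by the casein kinase genes CSNK1D at 23.8 (in a region that also carried another gene's peak) and CSNK1E at 15.7, and by AMER1, a membrane anchor of APC, at 12.5. APC2, the paralog of APC, had 1 peak at 7.95 with an adjusted p of 0.0003, also in a shared region. No gene of this group exceeded AXIN1. Of the other 14 nuclear factors, 11 (78.6%) had a peak. The corepressor gene TLE4 had a best fold enrichment of 27.6, equal to that of AXIN1, a value that 24 listed peaks had. The adjusted p was 1.5e-06 in TLE4 and 1e-100 in AXIN1. The acetyltransferase gene EP300 followed at 25.1, in a shared region, and BCL9, which binds beta-catenin, at 17.6. In the family of TCF7L2, TCF7 stood at 12.5 with an adjusted p of 0.0041, LEF1 at 8.78 with 0.013 in a shared region, and TCF7L1 had no peak. Among 8 target genes, 6 (75.0%) had a peak, with 17.6 in the growth regulator MYC, 9.38 in JUN and 4.74 in the survival gene BIRC5.

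**Figure D4:**
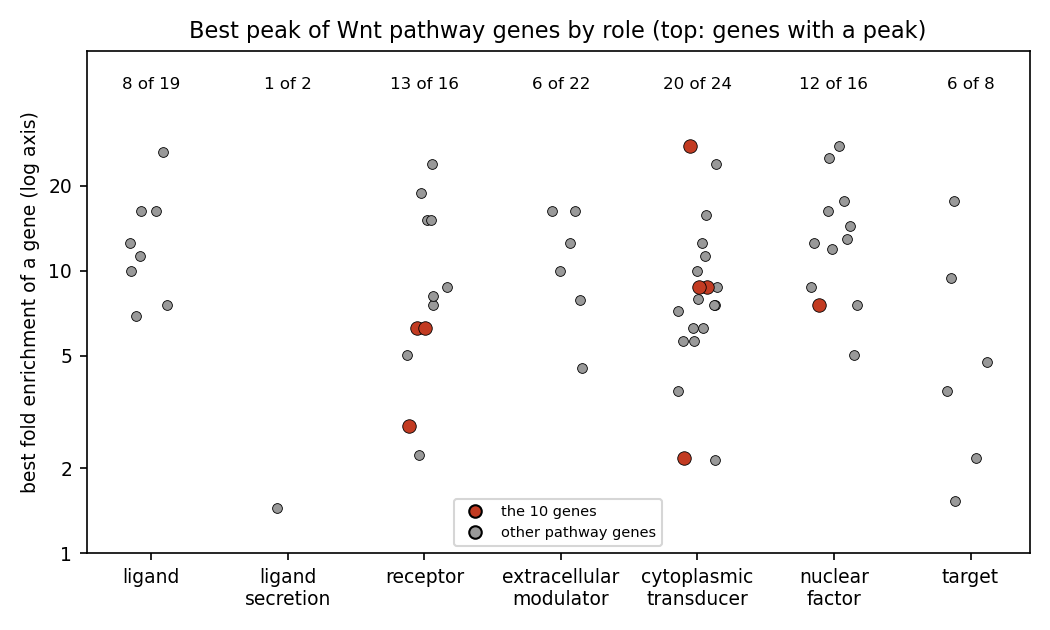
Best fold enrichment (log axis) of each Wnt pathway gene with a peak, by role, with the 10 genes in red and other pathway genes in grey; the text at the top gives the genes with a peak out of all genes of that role. Cytoplasmic transducers had a peak in 20 of 24 genes and extracellular modulators, a role that mixes secreted factors with membrane proteins, in 6 of 22.

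As a check of the labelled cell type, 11 of 16 markers listed for squamous epithelium had a peak, all 11 with an adjusted p under 0.05. Of 6 blood and immune markers 2 had a peak (1 with an adjusted p under 0.05), and of 8 fibroblast and endothelium markers 2 (none under 0.05), beside 40.0% of protein-coding genes with a peak and 34.0% with one under 0.05. The share of blood and immune markers with any peak was thus near the background, and that with an adjusted p under 0.05 was below it. With 6 genes neither share was tested. KRT6A, KRT17, PKP1, DSC3 and EPCAM were the markers of the squamous list without a peak. EPCAM is not particular to squamous epithelium, so that list is not strictly squamous. Since these are enrichments and not expression levels, and the markers were chosen with earlier results of these data known, the check is indirect.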

How the data were processed

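The data are 1 YTHDF3 RIP library and 1 input library of KYSE30 cells, as their titles name them. RNA of both was fragmented, copied with random hexamers and tagged with molecular identifiers, per the labels' protocols. The authors deposited 1 peak list. Per the file headers, it gives the ratio of RIP over input as a fold enrichment and a linear p-value and adjusted p-value per peak; the score column repeats the p-value rounded. The p-values concern reads of 2 single libraries and say nothing about conditions. Peaks with the same p-value can carry different adjusted p-values, and how these were adjusted is not given. The build is hg38, per the submitters' processing notes; for the aligner, caller, thresholds, strand setting and annotation, the sources used here give nothing. Depth is unknown, so no error or interval was computed.

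Rows were taken by exact gene name. Starts were taken as counted from 0 and are printed from 1, since 786 starts lay 1 below the RefSeq gene start and 68 equalled it. The list's own length column equals end minus start plus 1 for all 18466 peaks, which would fit starts counted from 1, so single-base positions are uncertain by 1. For the background, names were matched to a RefSeq table (GRCh38.p14) by symbol or older symbol within 100000 bases; 17321 peaks matched and 1145 did not. Gene bounds and start sequences are RefSeq's; windows were found for 6 of the 10 genes. Regions counted as shared when they overlapped another name's peak by at least 1 base. The best peak has the largest fold enrichment, ties broken by p. The members, the wider list and the markers were chosen with earlier results of these data known, from general knowledge. Named were the 10 genes, the leading 3 of each role, paralogs of members and all frizzled genes. The motif count within regions was planned for a genome of this build and was not run. Counting was tested on simulated data with Python 3.11.15 and pandas 2.3.3.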

Additional observations from a re-analysis of the deposited data

How the results depend on the processing

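With 1 library of each kind, no replicate could be left out. No paired analysis was possible because each group has 1 sample and no result comes from a test. The count of 8 genes with a peak was also 8 with an adjusted p under 0.05, without regions shared with another gene, and with any peak overlapping the gene on its strand; it was 6 at or above the median fold enrichment and 2 (APC and AXIN1) when the leading 10% by p were kept. The 26 regions became 18 and 24 under the first 2 of these settings. The median best fold enrichment of 6.9 became 2.63 in the peak with the smallest p, 2.88 as the median over a gene's peaks and 5.72 among peaks with an adjusted p under 0.05. AXIN1 and GSK3B have 1 peak each, so these settings cannot change their values. The 66 of 107 pathway genes with a peak became 59 with an adjusted p under 0.05, 55 at or above the median fold enrichment, 60 without shared regions and 58 without the 10 genes. A fold enrichment over a low input is imprecise, and the list gives no read counts to tell which those are. The fold enrichment and rounded p of the last APC region were held by 489 peaks and those of the first TCF7L2 region by 747, each count including the region itself. Whether such ties reflect few reads was not tested.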
